A study of Mus musculus with 143 samples.

Results

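The regions described here are 575 stretches of the mouse autosomes where H3K27me3, the trimethyl mark on lysine 27 of histone H3, was called as a peak in all 6 knockout oocyte libraries and in none of the 6 control libraries. They were selected on the peak calls themselves: an autosomal peak of the first adult Dis3 knockout library was kept when it overlapped, by at least 1 base, a peak in each of the 5 other knockout lists and no peak in any control list. The starting list held 264257 autosomal peaks, of which the gained regions are 0.218%. A total of 25754 of those peaks were present in all 6 knockout lists, and the gained regions are 2.23% of them. Because presence in the knockouts and absence in the controls made the choice, the H3K27me3 values below are a description of the regions and were not tested.

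The study profiled mouse oocytes lacking DIS3 and EXOSC10, the ribonucleases of the nuclear RNA exosome, a complex that trims and degrades RNA. H3K27me3 CUT&Tag, which cuts and tags chromatin next to a bound antibody, was made on bulk oocytes as 3 libraries in each of 4 groups: adult germinal vesicle (GV) oocytes from control and from Dis3 conditional knockout (Dis3 cKO) females, and oocytes of postnatal day 20 (p20) from control females and from females in which both Dis3 and Exosc10 were deleted (dcKO). CUT&Tag for RNA polymerase II (Pol II) had 3 libraries each of adult GV control, adult GV Dis3 cKO and p20 control. RNA after removal of ribosomal RNA was sequenced from single oocytes, with 8 libraries in each of 6 groups: control and Dis3 cKO at the adult GV stage, and at p20 the controls, either single knockout (Dis3 cKO or Exosc10 cKO) and dcKO. The labels do not name the Cre driver, the strain or the number of oocytes pooled for a CUT&Tag library, and the control genotype is given only as control. Knockout in one set of lists meant Dis3 alone at the adult stage and in the other both genes at p20, so genotype and age differ together between them.

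H3K27me3 is laid down by Polycomb repressive complex 2 (PRC2), whose catalytic subunits are EZH1 and EZH2, and it marks genes that are kept silent. In growing mouse oocytes the mark is known to spread as broad domains over untranscribed chromatin between genes, to be scarce over transcribed gene bodies, and at some loci to pass to the embryo as a maternal imprint. A CUT&Tag peak list says where signal rose above the caller's threshold in a library, and not how many nucleosomes carried the mark.

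The CUT&Tag reads had been sampled to the same number in every library before peaks were called. The lists nonetheless differed in length: the knockout lists held between 214771 and 286989 autosomal peaks covering 147 to 187 Mb, and the control lists between 84033 and 178429 covering 64.6 to 135 Mb. The RNA libraries held 8492102 to 35429028 counts in genes. Dis3 was at 15.4 ± 5.73 CPM (counts per 1000000 of the library's TMM-scaled size, SD, n = 8) in adult controls and 1.78 ± 0.917 (n = 8) in adult Dis3 cKO. In p20 dcKO it was at 2.87 ± 0.968 against 13.7 ± 4.88 in p20 controls, where Exosc10 was at 7.38 ± 4.58 against 118 ± 11.3 (SD, n = 8 each). The 11 oocyte markers summed to at least 7543 CPM in every library, and the 10 granulosa and cumulus markers to at most 52.2 CPM. The latter list lay at 4.82 to 20.2 CPM in p20 dcKO and 29.1 to 42.8 in p20 controls, ranges that did not overlap, and its part in the RNA differences below was not tested.

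The transcription start of 5 genes lay inside a gained region, as bounded by its peak in the first adult Dis3 cKO list, and the bases around those starts are shown as the gene starts nearest to the gain. Most peaks of the other knockout lists cover these regions only in part, down to 9 bp at Akap6 and 51 bp at Tomm20l. For 4 of these genes they are given from RefSeq (GRCm38, mm10), from 250 bases before to 50 bases from the start, 5′ to 3′ on the gene's strand, with each CG dinucleotide in capitals. Gm39798 (chr2:36030903-36031202, minus strand) is a long noncoding RNA. Akap6 (chr12:52699133-52699432, plus strand) encodes an anchoring protein that holds protein kinase A near its targets in muscle, Lmntd1 (chr6:145434876-145435175, minus strand) encodes a protein with a lamin tail domain, and Tomm20l (chr12:71111178-71111477, plus strand) encodes a relative of a mitochondrial import receptor.
Lmntd1: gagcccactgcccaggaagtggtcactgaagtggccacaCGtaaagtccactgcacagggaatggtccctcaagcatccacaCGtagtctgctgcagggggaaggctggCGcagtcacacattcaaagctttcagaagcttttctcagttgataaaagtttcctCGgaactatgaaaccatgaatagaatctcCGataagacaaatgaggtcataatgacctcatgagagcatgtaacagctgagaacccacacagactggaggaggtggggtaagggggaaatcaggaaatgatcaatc
Akap6: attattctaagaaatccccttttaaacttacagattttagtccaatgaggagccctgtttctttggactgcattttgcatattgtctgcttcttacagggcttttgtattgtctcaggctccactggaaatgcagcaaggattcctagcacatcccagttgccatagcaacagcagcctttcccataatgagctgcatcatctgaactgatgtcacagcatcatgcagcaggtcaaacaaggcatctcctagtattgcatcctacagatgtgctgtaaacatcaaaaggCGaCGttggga
Gm39798: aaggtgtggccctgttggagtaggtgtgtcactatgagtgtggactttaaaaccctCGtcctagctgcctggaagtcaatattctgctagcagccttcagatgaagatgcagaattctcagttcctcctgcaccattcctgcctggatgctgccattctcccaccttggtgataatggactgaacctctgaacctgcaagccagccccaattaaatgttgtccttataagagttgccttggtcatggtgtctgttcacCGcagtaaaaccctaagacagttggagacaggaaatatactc
Tomm20l: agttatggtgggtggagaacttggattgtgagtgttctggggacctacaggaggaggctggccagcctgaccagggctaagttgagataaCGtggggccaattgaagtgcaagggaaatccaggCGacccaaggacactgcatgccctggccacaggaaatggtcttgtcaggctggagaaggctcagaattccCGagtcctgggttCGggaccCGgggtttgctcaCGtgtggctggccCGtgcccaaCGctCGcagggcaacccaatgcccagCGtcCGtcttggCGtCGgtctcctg

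These promoters held 5, 2, 2 and 13 CG dinucleotides in the order printed, against a median of 7.0 over all 25748 autosomal RefSeq promoters of the same length. Lmntd1, Akap6 and Gm39798 thus had fewer than the median and Tomm20l more. The letters CCAAT, searched on both strands, were present in Akap6, Gm39798 and Tomm20l, absent from Lmntd1, and present in 37.8% of all promoters, a share against which so few windows cannot be read. Neither TATAAA, which 14.2% of all promoters hold, nor GGGCGG, which 36.3% hold, was present on either strand in these 4 windows. The promoter table used here has no entries for chromosome 18, so counts of starts cover the 544 gained regions on other chromosomes. The 176 host genes (genes holding the middle of a gained region) with a promoter in the table had a median of 7.5 CG, and CCAAT in 36.9%, GGGCGG in 37.5% and TATAAA in 7.39% of them.

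The gained regions were somewhat wider and stronger than the typical knockout peak, and none was among the highest. Among the peaks present in all 6 knockout lists, however, they were the narrowest and weakest class by the median: in the starting list those with a peak in 1 to 6 control lists had median widths of 781 to 1531 bp and median total signals of 2082 to 5727, against 734 bp and 1909. Their width ran from 177 to 2350 bp with a median of 734 bp, against medians of 536 to 592 bp in the 6 knockout lists, and together they cover 468 kb. The total signal of a peak, the authors' sum of coverage over its bases, had a median of 1909, 2088 and 1987 at the gained regions in adult Dis3 cKO libraries 1, 2 and 3, and of 1989, 2008 and 1589 in p20 dcKO libraries 1, 2 and 3. The medians of all autosomal peaks in the same 6 lists were 1459, 1722, 1552, 1538, 1436 and 1185. Between 62.8% and 66.3% of the gained regions were above their list's median, so they sat a little above the middle of each list. Their highest coverage at any base had a median of 4 to 6, where the lists' medians were 4 to 5, and reached at most 20 in any knockout library, whereas the highest peaks of those lists reached 350 to 669.

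**Figure D1:**
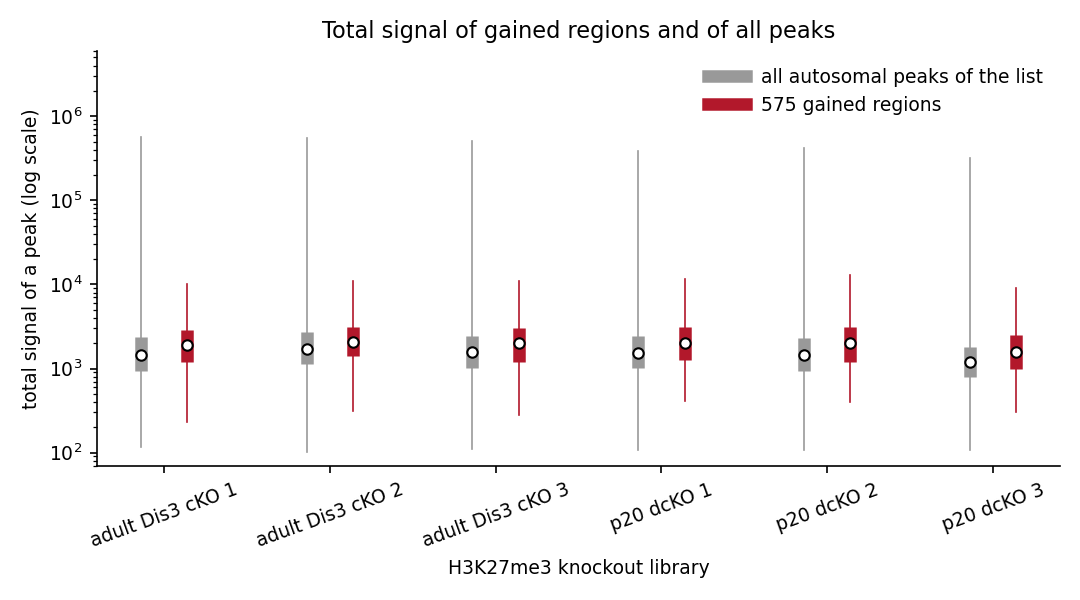
Total signal of a peak (log scale) in each of the 6 H3K27me3 knockout libraries, for all autosomal peaks of the list (grey) and the 575 gained regions (red); circles are medians, thick bars quartiles and thin lines the lowest and highest peak. The gained regions have medians of 1589 to 2088, slightly above those of the lists, and the highest of them reaches 13104, where the lists reach 317131 or more.

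Strength varied between the libraries at a single region. The region with the highest minimum over the knockouts, chr10:31247846-31249058 inside the gene model Gm5422, had total signals of 3236, 9520 and 2934 in the adult Dis3 cKO libraries and 8583, 5202 and 3717 in the p20 dcKO libraries. The next, chr1:152400173-152401409 in Colgalt2, an enzyme that adds galactose to collagen, was more even at 3270, 2985 and 3670 and at 2739, 2971 and 4916. The region chr19:23159994-23160716 in Klf9, a zinc finger transcription factor, had 3202, 6193 and 3827, and 2577, 2944 and 5039. The widest region, chr14:42054148-42056497, fell to 586 in adult Dis3 cKO library 2 from 6085 in library 1. Over all 575, the lowest of the 6 totals ranged from 231 to 2934 with a median of 859.

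The peaks of different knockout libraries often met only in part. The smallest overlap of a gained region with any other knockout list had a median of 155 bp and reached down to 3 bp, as at chr12:20138723-20140170 in Gm9265. Requiring 50% of the region to be covered in each other knockout list left 49 regions. The threshold of the choice lies at 1 base of overlap with a control: the members nearest to it were chr6:11851991-11852260, which touches a control peak, and chr2:163393167-163393863 in Jph2, 1 base away. Just outside it were chr1:78097098-78097988 and chr7:49936812-49938354, each of which shared 2 bases with a control peak.

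Most gained regions lay beside H3K27me3 peaks of the controls. The nearest control peak was at a median of 587 bp, 375 of the 575 regions (65.2%) had one within 1000 bp, 534 (92.9%) within 5000 bp and 557 (96.9%) within 10000 bp. A region in Magi2, chr5:19962168-19962674, was among the more isolated at 40480 bp from a control peak, and 1 in Rora, chr9:68744537-68744794, at 13899 bp. The 102369 peaks of the starting list that overlapped no control peak had one within these distances in 36.6%, 74.9% and 87.2%, so the gained regions lay nearer to control peaks than those did.

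The count has to be read against the lengths of the lists. Of the peaks present in all 6 knockout lists, 575 met a peak in 0 control lists, 1113 in 1, 1818 in 2, 2634 in 3, 4103 in 4, 5870 in 5 and 9641 in all 6, so the gained regions are the thin end of a gradient. A total of 42774 starting-list peaks had neither a control peak nor a second knockout list, against the 575 with all 6. The same rule with controls and knockouts exchanged, starting from adult control library 1, gave 792 regions of 94947 peaks (0.834%), and 4.05% of the 19571 peaks present in all 6 control lists. In an alternative added after the data were seen, each list was cut to its 84033 strongest peaks, the length of the shortest list. The rule then gave 37 regions, of which 10 overlapped the 575, and the exchanged rule gave 1342. Losses by the exchanged rule thus outnumbered gains from this starting list and more so at equal lengths. From the other 5 control lists the exchanged rule gave 313 to 741 regions, and from the other 5 knockout lists the rule for gains gave 509 to 556.

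The gained regions were spread over all 19 autosomes, with 15 on chromosome 16 to 45 on chromosome 5. As a share of the starting list this was lowest on chromosome 7 (0.123%) and highest on chromosome 18 (0.347%). The median gap between neighbours was 2339162 bp, and 15 neighbouring pairs were within 10000 bp. A few windows of 1 Mb held several. The window at 85 Mb of chromosome 1 held 6, of which 3 lay in the gene model Gm7592 and 1 in Sp100, whose product is a component of nuclear bodies. The window at 75 Mb of chromosome 2 held 5, 3 of them in the long noncoding RNA 2600014E21Rik. Neighbouring windows at 145 and 146 Mb of chromosome 4 held 4 each, among zinc finger genes (Zfp980, Zfp990, Zfp992, Zfp993) and the vomeronasal receptor pseudogene Vmn2r-ps16. Windows with 3 lay in a group of Pramel genes at 94 Mb of chromosome 5 and beside Ang6 and Ear2 at 44 Mb of chromosome 14. Several of these families consist of near-identical copies, where the place of a short read is uncertain, and how such reads were handled is not given in the sources used here.

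The middle of 253 of the 575 gained regions (44.0%, Wilson 95% interval 40.0 to 48.1, counting error only) lay inside a RefSeq gene and 322 lay between genes. The share was 48.0% for all peaks of the starting list, 71.1% (70.1 to 72.0) for the 9641 peaks present in all 12 lists and 72.6% (69.4 to 75.6) for the exchanged rule. It rose step by step with the number of control lists that held a peak, from 44.0% through 47.3%, 49.9%, 54.5%, 58.5% and 64.4% to 71.1%. A gene start was held by 5 of 544 gained regions (0.919%), against 1.48% of the starting list and 7.05% of the peaks in all 12 lists, and 74 (13.6%) had one within 5000 bp, near the 13.9% of the starting list. The median distance to the nearest start was 27864 bp. In these positions the gained regions were close to the starting list as a whole.

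The regions inside genes fell in 253 RefSeq genes, 175 of them protein-coding and 64 long noncoding. The coding hosts were long, with a median of 138407 bp against 17491 bp for all autosomal coding genes. A longer gene has more bases in which a peak can lie, and the part of this in the hosts' length was not tested. Coding hosts of peaks present in all 6 knockout lists and in 1, 2 or 3 control lists had medians of 97054, 94258 and 79340 bp. Those with a peak in 4, 5 or 6 control lists had medians of 61628, 46845 and 33404 bp, and those of the exchanged rule 23396 bp. Within the hosts whose start is known, the regions were spread evenly: their position from start to end had quartiles of 25.7%, 49.9% and 74.7% of the gene, and 19 of 190 lay in the first 10%. A single region was held by 234 hosts. Vmn2r-ps16 held 4, and 3 each were held by Chst11, Pgm5, Gm7592 and 2600014E21Rik. Chst11 encodes a sulfotransferase that modifies chondroitin, and Pgm5 a phosphoglucomutase relative found at cell adhesions.

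In Chst11 (chr10:82984440-83195904, plus strand, overlapping the noncoding LOC115487465) the regions lay at 63.2%, 69.1% and 77.8% of the gene. The first, chr10:83117552-83118823, had totals of 3962, 2526 and 2238 in adult Dis3 cKO and 3909, 1260 and 1873 in p20 dcKO. The second, chr10:83129634-83131579, had 6294, 942 and 1135, and 6768, 2232 and 1807. The third, chr10:83148606-83149207, had 2473, 4689 and 514, and 2618, 4481 and 2960. The weakest of the 6 knockout peaks thus had a total of 1260, 942 and 514 at the 3 regions. The first overlapped a Pol II peak in 2 of the 9 Pol II lists, the second in 1 and the third in 0.

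Cover of the whole host genes by H3K27me3 peaks was taken from the same lists that chose them, and is a description. Over the summed bases of the 253 hosts, peaks covered 4.12%, 6.86% and 3.35% in the adult control libraries and 12.6%, 9.72% and 10.2% in adult Dis3 cKO. At p20 they covered 7.27%, 6.96% and 7.44% in controls and 10.9%, 12.5% and 11.8% in dcKO. The knockout libraries were above every control library at both ages. Over all autosomal genes the cover was 3.41% to 6.51% in adult controls against 6.45% to 8.20% in Dis3 cKO, and 6.45% to 6.54% in p20 controls against 6.93% to 8.06% in dcKO. Chst11 was covered over 13.9%, 7.85% and 9.42% of its length in adult controls and 35.5%, 25.7% and 28.1% in Dis3 cKO, and over 18.8%, 16.4% and 19.5% in p20 controls and 30.1%, 33.1% and 26.6% in dcKO. With the gained regions themselves taken out, the host cover was 3.36% to 6.88% in adult controls against 9.53% to 12.3% in Dis3 cKO, and 6.99% to 7.47% in p20 controls against 10.7% to 12.4% in dcKO.

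**Figure D2:**
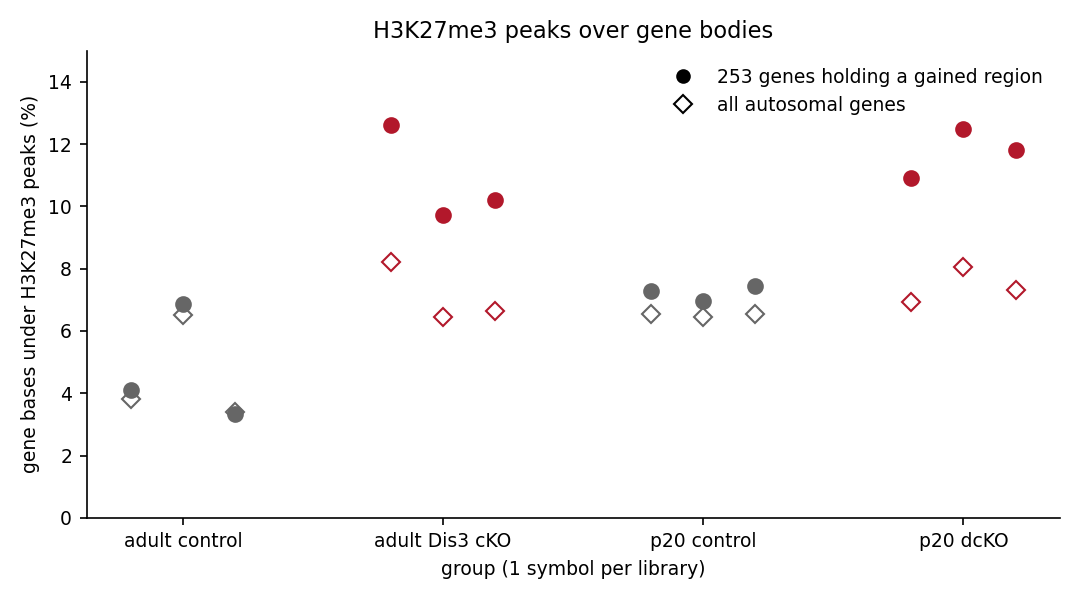
Share of gene bases under H3K27me3 peaks (%, y axis) in each of the 12 libraries, by group, for the 253 genes holding a gained region (filled circles) and for all autosomal genes (open diamonds); controls are grey and knockouts red. Host genes lie at 3.35% to 7.44% in controls and 9.72% to 12.6% in knockouts, while all genes reach at most 8.20%.

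Pol II peaks, a readout that the choice did not use, overlapped a small share of the gained regions, as they did of all peaks in the starting list. They met 2, 6 and 10 of the 575 regions in the adult control libraries (1.04% ± 0.696, SD, n = 3), 15, 3 and 25 in adult Dis3 cKO (2.49% ± 1.92, n = 3) and 16, 20 and 17 in p20 control (3.07% ± 0.362, n = 3). In all, 68 regions met a Pol II peak in at least 1 library. Adult Dis3 cKO and control overlapped, and the difference of 1.45 points had p = 0.30 in an exact two-sided permutation test, which can give no p below 0.10 with 3 against 3. For p20 control minus adult control the difference was 2.03 points, with p = 0.10 in the same permutation test. Over all peaks of the starting list that difference was 1.06 points, also with p = 0.10 in that test. The p20 control lists held 71337 to 79302 Pol II peaks and the adult control lists 19166 to 34825. The part of list length in these differences was not tested. Dis3 cKO library 2, the lowest, also had the shortest Pol II list of its group (29298 peaks against 84842 and 117182). Over all peaks of the starting list the Pol II share was 0.486% ± 0.166 in adult control and 1.57% ± 1.01 in Dis3 cKO, and 1.55% ± 0.223 in p20 control. Peaks present in all 6 knockout lists and all 6 control lists were at means of 1.56%, 4.15% and 4.33%, and regions of the exchanged rule at 3.20%, 9.18% and 9.64%. The gained regions thus lay above the starting list and below these 2 classes in each group's mean, differences that were not tested. Their libraries ran from 0.348% to 1.74%, 0.522% to 4.35% and 2.78% to 3.48%. Peaks in all 6 knockout lists and 1 control list overlapped these ranges, at 0.539% to 1.71%, 1.08% to 4.40% and 2.79% to 4.31%. The place above the starting list is therefore not particular to the gained regions. With 19166 peaks taken from each Pol II list, the shares at the gained regions were 0.464%, 0.522% and 0.812%. A Pol II peak covered the start of 0 to 4 of the 176 host genes in any library. This was 0% to 2.27%, against 0.862% to 4.05% of all starts.

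The RNA of the host genes was measured in other oocytes and did not enter the choice of regions. Of the 253 hosts, 215 matched a counted gene by symbol, and 113 passed the filter on low counts in the adult comparison and 118 at p20. The tested hosts had a lower median control level than all tested genes. It was 4.79 against 11.5 CPM in the adult and 4.23 against 10.8 CPM at p20, and its part in the calls was not tested. Each comparison was fitted over all genes with edgeR's quasi-likelihood test, and called means an adjusted p (Benjamini-Hochberg over all genes tested) below 0.05. Host genes were more often lower than higher in both knockouts. Each group's 8 oocytes carry 2 tags in their titles, 4 oocytes to a tag. The labels do not say whether a tag is an animal, so the p-values measure the spread between these oocytes.

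In adult Dis3 cKO, 25 of 113 hosts (22.1%) were called lower and 9 (7.96%) higher, against 12.4% lower and 15.7% higher of all 15334 genes tested. The hosts' median log2 fold change was -0.34, against 0.03 for all genes. With ERCC spike-in counts as library size, which moved the median of all genes to -0.52, 60 hosts (53.1%) were lower and 1 (0.885%) higher, against 40.1% and 4.56% of all genes. For the 14 tested hosts of regions covered to 50% in every knockout list the adult direction turned, with 1 lower (7.14%), 2 higher (14.3%) and a median of 0.22. In p20 dcKO, 56 of 118 (47.5%) were lower and 12 (10.2%) higher, against 27.1% and 26.6% of all 15882 genes, and the median was -0.91 against -0.01. These comparisons share no library, and of the 111 hosts tested in both, 18 (16.2%) were lower in both, against 6.40% of 14756 genes. Higher in both were 4 (3.60%), against 7.62%, and 4 (3.60%) were called in opposite directions, near the 3.40% of all genes. Among protein-coding genes alone, 23.1% of hosts were lower and 8.33% higher in the adult, against 14.4% and 12.7% of all. In dcKO these shares were 46.9% and 10.6%, against 28.7% and 27.1%. At or above 1 CPM, 24.7% of hosts were lower and 9.68% higher in the adult, against 13.8% and 16.6% of all. In dcKO they were 51.0% and 11.2%, against 29.5% and 28.1%. In adult Dis3 cKO, with counts summed per title tag, edgeR called 0 hosts and 0 of 20190 genes (33 hosts had an unadjusted p below 0.05), while in p20 dcKO it still called 48 hosts lower (34.5%, against 15.7% of 20911 genes) and 10 higher (7.19%, against 16.1%). Over all tested genes, called or not, the mean of each knockout tag lay below that of each control tag for 41.6% of hosts against 25.7% of all genes in the adult, and for 63.6% against 37.6% in dcKO.

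Gene length moved with this result. Among genes of 100 kb or more, the dcKO test called 48.8% of all 1913 lower, and 45 of the 82 hosts of that length (54.9%). Under 100 kb it called 24.7% of all genes lower and 11 of 35 hosts (31.4%). In the adult, the long genes gave 19.9% of all and 19 of 79 hosts (24.1%), and the shorter ones 12.2% of all and 6 of 33 hosts (18.2%). Higher calls at 100 kb or more were 10.1% of hosts against 10.3% of all genes in the adult and 12.2% against 13.5% in dcKO, and under 100 kb they were 1 of 33 hosts against 15% and 2 of 35 against 28.8%. The hosts' excess of lower calls was therefore smaller against genes on the same side of 100 kb than against all genes. A single cut at 100 kb does not match lengths, and hosts may still differ in length from the other genes on their side. The hosts' median log2 fold change also lay below that of all genes on the same side. In dcKO it was -1.14 for the long hosts against -0.41 for all long genes, and -0.69 against 0.05 under 100 kb. In the adult it was -0.34 against -0.09, and -0.36 against 0.03. These gaps in the median were smaller than over all genes, except for adult genes under 100 kb. Of long genes tested in both, 15 of 77 hosts (19.5%) were lower in both, against 14.2% of 1864, and of shorter ones 3 of 33 (9.09%) against 5.49%. The remaining excess was not tested.

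The share of lower hosts fell as more control lists held the peak. For peaks present in all 6 knockout lists and in 0 to 6 control lists, the hosts called lower in dcKO were 47.5%, 44.9%, 35.6%, 31.7%, 28.6%, 24.7% and 23.0%, and in the adult 22.1%, 21.0%, 17.2%, 15.2%, 14.5%, 13.9% and 12.2%. Within genes of 100 kb or more the dcKO shares were 54.9%, 52.1%, 39.7%, 39.4%, 36.5%, 35.1% and 38.0%, and the adult shares went from 24.1% to 14.1%. Hosts of the exchanged rule were lower in 29.9% and higher in 25.4% in dcKO, close to all genes. Those of 100 kb or more, however, were lower in 54.9% in dcKO and 23.0% in the adult, as often in dcKO as the long hosts of gained regions. Their median log2 fold change in dcKO was -0.50, against the -1.14 of the latter. Some genes hold peaks of several of these classes, so the classes are not independent.

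**Figure D3:**
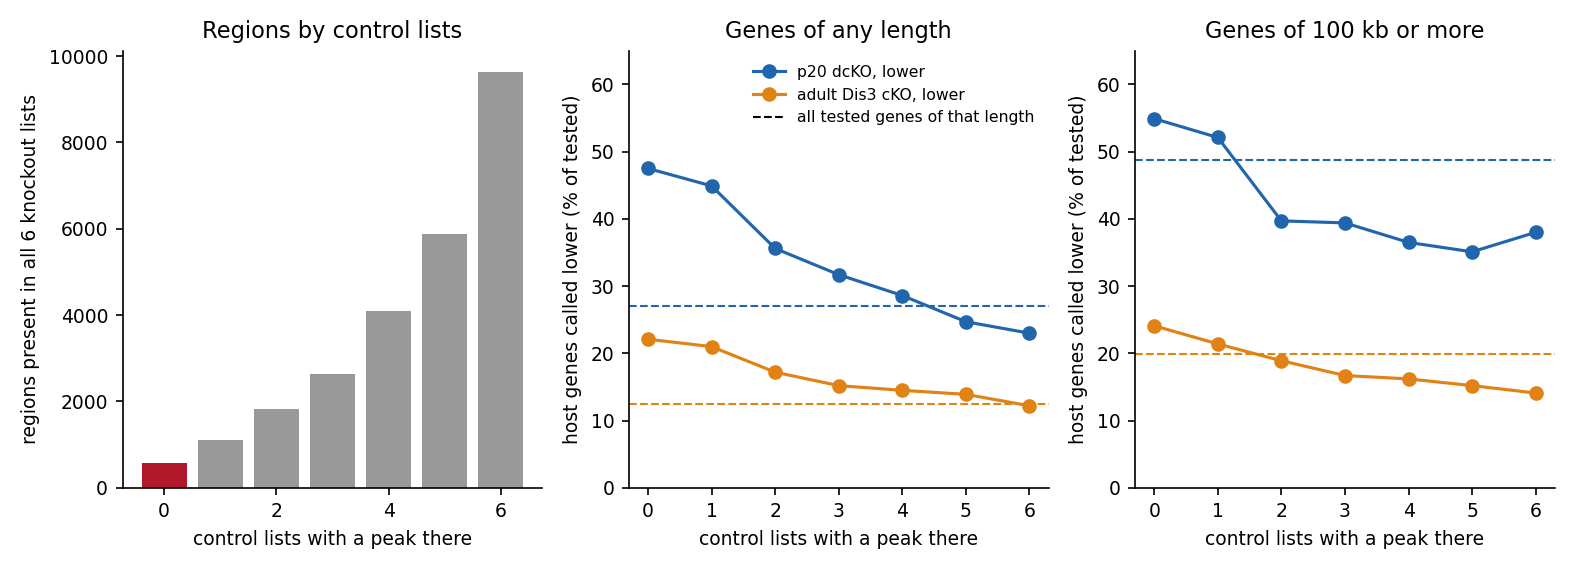
Peaks present in all 6 knockout lists by the number of control lists with a peak there (x axis, 0 to 6): their number (left, gained regions in red) and the share of their host genes called lower (%, middle for all genes, right for genes of 100 kb or more) in p20 dcKO (blue) and adult Dis3 cKO (orange), with dashed lines for all tested genes of that length. The share falls from 47.5% to 23.0% in dcKO and from 22.1% to 12.2% in the adult, and the long-gene background in dcKO is 48.8%.

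Chst11, with 3 gained regions, had the largest called fall among hosts with more than 1 region. Its level was 12.9, 64.4 and 78.7 CPM (lowest, median and highest of 8) in p20 controls and 0.643, 2.16 and 5.83 in dcKO. No dcKO library reached a control library. The log2 fold change was -4.60 ± 0.52 (SE, edgeR adjusted p = 6.26e-09). In the adult it was 33.2, 46.4 and 57.6 CPM in controls and 1.61, 14.7 and 38.2 in Dis3 cKO, ranges that overlapped, with a log2 fold change of -1.51 ± 0.52 (adjusted p = 0.0344). Its tag means in adult Dis3 cKO were 7.96 and 23.5 CPM, against 45.5 and 44.6 in controls. Of the other hosts named for their number of regions, Rhobtb3 rose by 1.03 ± 0.30 in the adult (edgeR adjusted p = 0.0158). That call was lost with ERCC counts as library size (0.215), and in dcKO the gene was at -0.12. Tenm2 was called lower in dcKO (-1.97 ± 0.71, adjusted p = 0.0187, but 0.150 summed per title tag) and was at 0.77 in the adult. Cdh13 was called in neither (0.18 and -0.15), nor was Pgm5 in the adult (0.32). Vmn2r-ps16, the host with the most regions, was at 0 CPM in every library, controls included. Gm7592, 2600014E21Rik and Asic2 reached at most 0.249 CPM in any library. These hosts were too low to test, in controls as in knockouts.

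Other hosts were lower in both knockouts. Rbm47, an RNA-binding protein that assists C-to-U editing, was at 21.2, 31.5 and 41.9 CPM in adult controls and 0.654, 9.50 and 11.4 in Dis3 cKO, without overlap (log2 fold change -2.25 ± 0.49, edgeR adjusted p = 0.00218). At p20 it was at 9.33, 33.6 and 57.0 CPM in controls and 1.71, 5.68 and 12.4 in dcKO, with overlap (-2.41 ± 0.42, adjusted p = 1.12e-05). Sorcs3, a sorting receptor of neurons, fell from a median of 9.72 to 1.15 CPM in dcKO (-3.07 ± 0.48, adjusted p = 2.34e-06) and from 5.28 to 0.972 in the adult (-2.07 ± 0.55, adjusted p = 0.00849). Adgrv1, a giant adhesion receptor of the inner ear, fell by 2.14 in the adult and 2.67 in dcKO on the log2 scale. Sox5, a transcription factor of cartilage and neurons and the single host among 164 developmental regulators, fell by 1.78 and 2.18 at low levels (medians of 1.32 and 1.56 CPM in controls). Zfp710, a zinc finger gene, fell by 1.33 and 2.01 from control medians of 21.0 and 21.5 CPM.

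Other hosts passed as lower in 1 comparison. In dcKO, Tox, an HMG-box factor of T cell development, was at 0.896, 17.2 and 24.9 CPM in controls and 0.234, 0.832 and 4.63 in dcKO, with 1 control library inside the dcKO range (log2 fold change -3.68 ± 0.77, edgeR adjusted p = 1.46e-04). Sp100 lay at 0.747, 1.81 and 3.54 CPM in controls and 0, 0.0763 and 0.212 in dcKO, without overlap (-4.50 ± 0.72, adjusted p = 3.06e-06). Prkcb, a protein kinase C, the noncoding Gm13481 and Cpne4, a calcium-dependent membrane-binding protein, had fitted changes of -5.77, -4.70 and -3.95 in dcKO. Their medians there were 0 CPM, and their control medians 2.41, 0.985 and 0.473 CPM, so the fitted sizes rest on very few counts. Prkcb was not tested in the adult, where it was at 0 in all 8 Dis3 cKO libraries and at 0 to 8.94 CPM in controls. In the adult, Astn1, which acts in neuronal migration, fell by 2.12 and Cpq, a carboxypeptidase, by 1.91, while in dcKO both missed the threshold (-1.07 and -0.77, edgeR adjusted p = 0.218 and 0.248). The Astn1 value rested on 1 dcKO library at 5.73 CPM. The other 7 lay at 0.0745 to 0.636, below all p20 controls. Without that library, left out after the data were seen, the change was -2.63 ± 0.71. The library was left out because it stood against a fall, so a larger fall had to follow and is no support for one.

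A minority of hosts were higher. Rora, a nuclear receptor, was at 17.4, 24.3 and 33.0 CPM in adult controls and 50.2, 71.0 and 85.7 in Dis3 cKO, and at 6.51, 15.4 and 19.0 in p20 controls and 25, 33.2 and 83.8 in dcKO. The groups did not overlap at either age, with log2 fold changes of 1.47 ± 0.13 and 1.41 ± 0.27 (edgeR adjusted p = 3.18e-07 and 3.39e-05). Col23a1, a membrane collagen, rose by 1.53 ± 0.40 in the adult and 1.96 ± 0.44 in dcKO, and Magi2, a scaffold of cell junctions, by 1.15 ± 0.26 and 0.85 ± 0.19. With ERCC counts as library size the adult calls of both were lost, at 1.00 for Col23a1 and 0.67 for Magi2 (edgeR adjusted p = 0.0733 and 0.0916), and that of Rora was kept at 0.98 (adjusted p = 0.00294). The adult tag means of Magi2 were 118 and 48.7 CPM in Dis3 cKO, against 39.9 and 34.8 in controls. Libraries of the lower Dis3 cKO tag, at 39.5 to 54.7 CPM, overlapped the controls at 26.5 to 49.5. Nbea, a vesicle traffic protein named after its values were seen, completed the 4 higher in both, at 0.95 ± 0.12 and 0.94 ± 0.13. In dcKO, Grhl2, a transcription factor of epithelia, was at 5.26, 8.67 and 14.1 CPM in controls and 26.5, 40.6 and 93.1 in dcKO (2.27 ± 0.23, adjusted p = 9.83e-10). Tnrc6a, a core protein of microRNA silencing, was at 48.8, 58.0 and 101 CPM against 141, 205 and 235 (1.59 ± 0.17, adjusted p = 1.55e-09). Neither pair of groups overlapped. Klf9 and Kcnip1 also passed as higher in dcKO, from control medians of 0.488 and 0.628 CPM. Loxhd1 passed as well, at 0 to 1.27 CPM in dcKO from a control median of 0. It did so only with all 4 p20 groups fitted together, and had no value when only control and dcKO were fitted. With ERCC counts as library size Klf9 and Kcnip1 lost the call (edgeR adjusted p = 0.0520 and 0.0609), and Kcnip1 also with no filter (0.0525) and summed per title tag (0.111).

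The 4 hosts called in opposite directions were Akap6, Entpd1, Arhgap15 and Triobp, the last 2 named after their values were seen. Akap6, whose start lies in a gained region, rose by 1.08 ± 0.30 in the adult (edgeR adjusted p = 0.0123) and changed by -1.29 ± 0.41 in dcKO (adjusted p = 0.00741). Entpd1, an enzyme that breaks down extracellular ATP, rose from a median of 17.0 to 37.0 CPM in the adult (1.18 ± 0.24) and fell from 6.06 to 1.20 in dcKO (-2.70 ± 0.49). The adult rises of these genes were lost with ERCC counts as library size, at 0.44 for Akap6 and 0.58 for Entpd1 (edgeR adjusted p = 0.195 and 0.0541), while their dcKO falls were kept. In p20 Dis3 cKO Entpd1 rose as well (1.93 ± 0.44, edgeR adjusted p = 0.00363). Its median there was 31.2 CPM, with 26.2 to 43.0 over the 8 libraries against 3.36 to 22.3 in p20 controls. Of the other genes with a start in a gained region, Lmntd1 missed the threshold in both (-0.14 ± 0.46 and -0.63 ± 0.62, adjusted p = 0.855 and 0.402). Tomm20l was filtered out at both ages, as was the 1 gene whose promoter is not reported here. Gm39798 matched no counted gene.

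**Figure D4:**
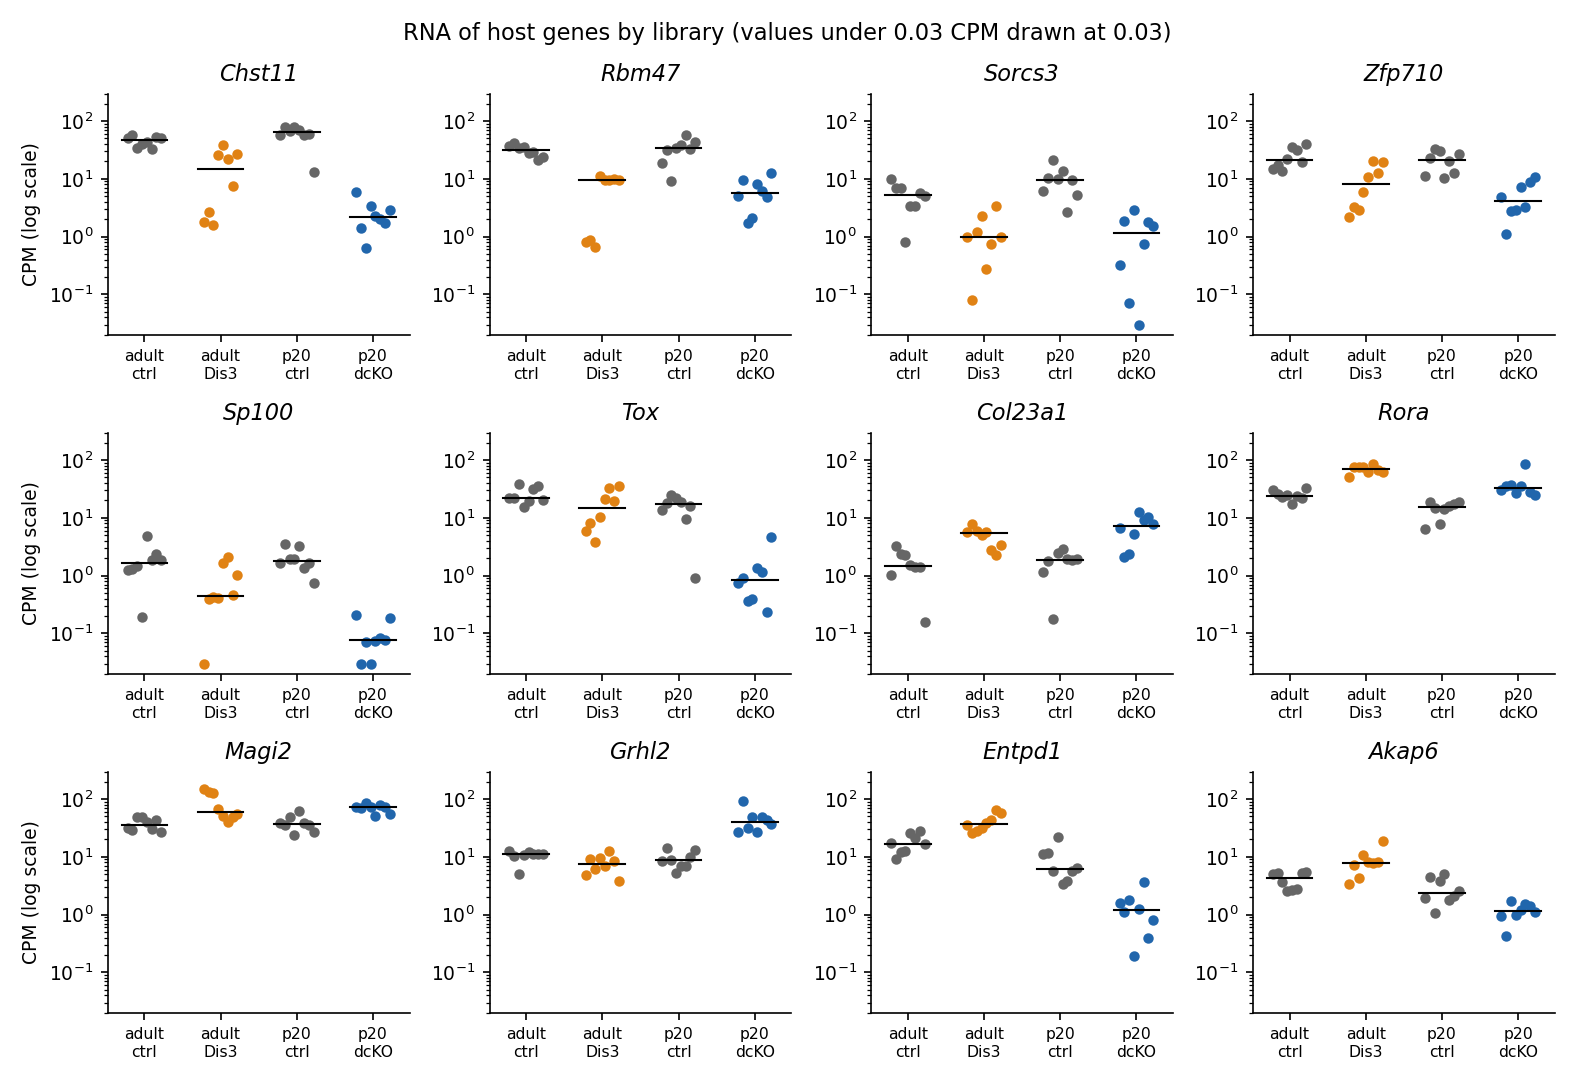
RNA level (CPM, log scale) of 12 host genes in each single-oocyte library of adult control, adult Dis3 cKO, p20 control and p20 dcKO; each point is 1 library, horizontal lines are medians, and values under 0.03 CPM are drawn at 0.03. Chst11 dcKO libraries lie at 0.643 to 5.83 below all controls at 12.9 to 78.7, Rora knockouts lie above controls at both ages, and Entpd1 is higher in adult Dis3 cKO and lower in dcKO.

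**Figure D5:**
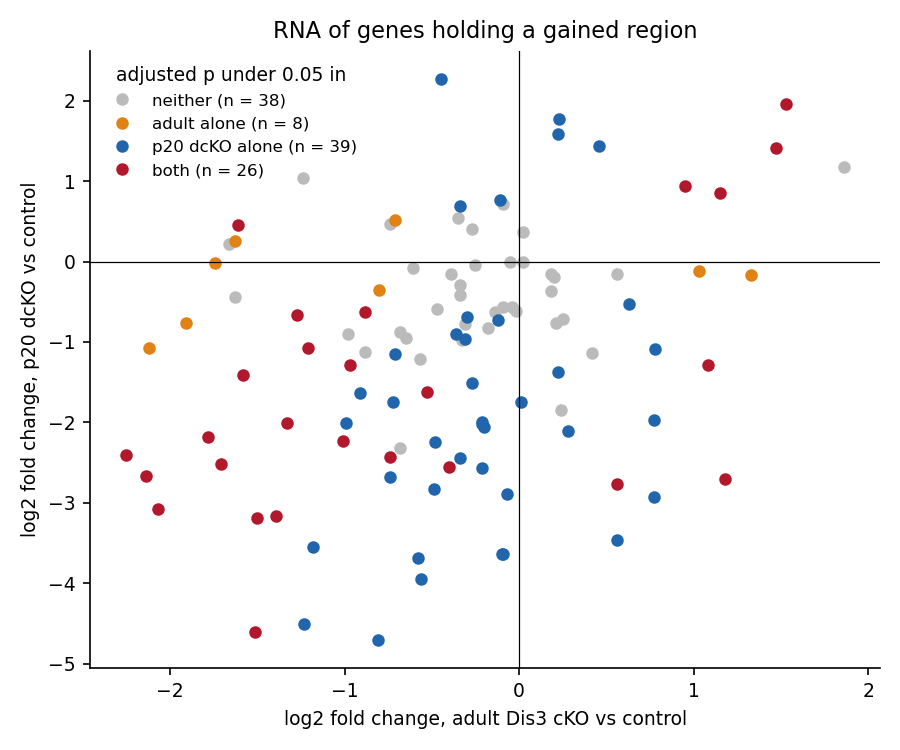
Log2 fold change of the 111 host genes tested in both comparisons, adult Dis3 cKO (x axis) against p20 dcKO (y axis), coloured by where the adjusted p was under 0.05. A total of 67 genes lie below 0 in both, 26 were called in both comparisons, 39 in dcKO alone, 8 in the adult alone and 38 in neither.

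The single knockouts at p20 changed few hosts. In p20 Dis3 cKO 4 of 118 hosts were lower (3.39%) and 3 higher (2.54%), against 3.76% and 3.61% of all genes, and in p20 Exosc10 cKO 4 were lower (3.39%) and 3 higher (2.54%), against 3.50% and 3.95%. These shares are near the background, while the hosts' median log2 fold change was -0.24 in Dis3 cKO and -0.28 in Exosc10 cKO, against 0.00 and 0.01 for all genes, with 75 and 78 of the 118 below 0. The 2 single knockouts and dcKO share their 8 control libraries. Chst11 was at 4.82, 44.5 and 89.2 CPM in Dis3 cKO (-0.42 ± 0.43, edgeR adjusted p = 0.650) and 4.98, 13.9 and 35.9 in Exosc10 cKO (-1.93 ± 0.44, adjusted p = 0.00424). Rbm47 was at -1.31 ± 0.40 in Exosc10 cKO (adjusted p = 0.0371), Tnrc6a at 0.62 ± 0.16 (adjusted p = 0.0138) and Rora at 0.95 ± 0.26 (adjusted p = 0.0202). Loxhd1 had a fitted change of 5.79 ± 1.05 there (edgeR adjusted p = 2.69e-04). It was at 0 CPM in every p20 control library but 1 (0.116 CPM), so the fitted size rests on very few counts and is no exact fold. Loxhd1 had no value when only the 2 groups compared were fitted. With ERCC counts as library size the edgeR adjusted p was 0.212 for Rbm47, 0.299 for Tnrc6a and 0.130 for Rora. Summed per title tag it was 0.144, 0.197 and 0.0923, and 0.0786 for Loxhd1, and with the replicate block it was 0.0523 for Rbm47. No H3K27me3 library of a p20 single knockout was analysed here.

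Few genes of the lists examined held a gained region, as few genes did at all: the 253 hosts are 0.538% of 47042 autosomal RefSeq genes. A list of 14 genes held those with imprinting by maternal H3K27me3 and candidates for it, such as Gab1, Sfmbt2, Slc38a4 and Smoc1. None of the 14 held a gained region, while 9 held a peak present in all 12 lists, which 6.46% of all autosomal genes did. Of 164 developmental transcription factor genes of the Hox, Pax, Gata, Sox, Tbx, Fox, Nkx, Lhx, Dlx and Irx families among others, 1 (Sox5) held a gained region and 58 a peak in all 12 lists. None of 11 autosomal genes for PRC2 subunits and H3K27 demethylases, 18 exosome genes or 16 autosomal genes of oocyte growth and the zona pellucida held one. Among genes named by family, 1 of 1420 olfactory receptor genes (Olfr1491), 1 of 623 vomeronasal genes (Vmn2r-ps16) and 6 of 406 Zfp genes did. Of the Zfp hosts, Zfp978, Zfp982, Zfp988 and Zfp992 lie together on chromosome 4. Zfp978 fell by 0.73 in dcKO (edgeR adjusted p = 0.0367), a call lost with ERCC counts as library size (0.0829), with no filter (0.0628) and summed per title tag (0.128). Zfp982 and Zfp992 had values of -0.15 and 0.72 there (edgeR adjusted p = 0.575 and 0.25), and Zfp988 was too low to test.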

How the data were processed

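Peak lists and gene counts were used as the authors deposited them. The H3K27me3 and Pol II lists give each peak's total and maximum signal (coverage), made by the authors. Per the submitters' processing notes, SEACR was used and the build is mm10. The caller's threshold is not given in the sources used here. RiboMinus files hold whole-number counts of 55487 gene IDs, deposited by the authors. Per the submitters' processing notes, STAR 2.7.2a and HTSeq 0.9.1 were among the tools, and the use of strand is not given. Of the 253 host genes, 165 overlap another RefSeq gene on either strand, so reads of the partners may not be separable.

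Here, overlaps of at least 1 bp were computed with Python 3.11.15 and pandas 2.3.3. Genes and starts came from RefSeq GRCm38, matched to counts by symbol (99.4% of gene IDs had one). Counts were tested by edgeR (version 4.0.16, run in R 4.3.3) with its quasi-likelihood test, TMM factors, filterByExpr and Benjamini-Hochberg adjustment, adult and p20 libraries in separate fits, all 4 p20 groups together, with DESeq2 1.42.0 as an alternative. The adult edgeR fit was also run on simulated counts with 200 changed genes. Those counts were drawn independently for each library, with no effect shared within a title tag. That run therefore cannot show how the fit behaves where oocytes of a tag are alike. CPM are per 1000000 of a library size that is the counts in genes passing the filter times the TMM factor. Named genes are the 6 hosts with the largest called change in each direction in the adult and dcKO comparisons, the 10 hosts with most regions, genes with a start in a region, and hosts from fixed gene lists. Named regions are the strongest, widest and least overlapping. Members and lists were chosen with earlier results of these data known. Poly(A) libraries were not used here, nor were IgG samples. The promoter of 1 gene with a start in a region is not reported here.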

Additional observations from a re-analysis of the deposited data

Results flagged for a closer look

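For the host genes with the largest called changes, 91 gene groups of 8 libraries were examined for a library standing apart by Dixon's criterion. In 19 of them 1 did so. The criterion flags about 1 in 20 groups of normally distributed values, which CPM near 0 are not. Where 7 libraries were at 0, any count in the other was flagged, so the 19 cannot be set against that rate. In p20 dcKO, 1 library stood above the rest for Astn1 (5.73 CPM, others 0.0745 to 0.636), Sox5 (2.65 CPM, others at most 0.727), Rora (83.8 CPM, others 25 to 37.5), Otud7a (4.54 CPM, others at most 2.21), Entpd1 (3.68 CPM, others at most 1.78), Tox (4.63 CPM, others at most 1.34) and Grhl2 (93.1 CPM, others at most 49.8). In the same group Prkcb was at 0.363 CPM in 1 library and at most 0.0714 in the others, and Gm13481 and Cpne4 were at 0.284 and 0.318 CPM in 1 library each and at 0 in the other 7.

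In p20 controls, 1 library was high for Otud7a (4.01 CPM), Entpd1 (22.3 CPM), Tnrc6a (101 CPM) and Loxhd1 (0.116 CPM, others 0), and 1 was low for Chst11 (12.9 CPM, others 56.7 to 78.7). In adult controls, 1 library was high for Sp100 (4.94 CPM) and Kcnip1 (1.90 CPM), and 1 was low for Grhl2 (5.01 CPM, others 10.4 to 12.4). In adult Dis3 cKO, 1 library was high for Akap6 (19.1 CPM, others 3.42 to 10.7).

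Otud7a, a deubiquitinase gene, had values of opposite sign after loss of Dis3 at the 2 ages. Its log2 fold change was 1.33 in the adult (edgeR adjusted p = 0.00994, and 0.110 with ERCC counts as library size), where all 8 Dis3 cKO libraries were above the control mean, and -1.41 at p20 (adjusted p = 0.0585, not called), where all 8 were below it. The difference was not tested.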

How the results depend on the processing

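The number of gained regions was 575 as defined and 509 to 556 from the other knockout lists as start. It was 49 with 50% of the region covered, 209 with all peaks above their list's median signal, 53 with knockout peaks above it, 200 with no control peak within 1000 bp, and 643 to 1253 without 1 of the 12 libraries (963 to 1253 without a knockout library). At equal list lengths, added after the data were seen, it was 37, and the exchanged rule gave 1342. From other control lists the exchanged rule gave 313 and 437 at the lowest. The share in genes was 32.5% for coding genes alone. Pol II shares at equal list lengths were 0.522% in adult Dis3 cKO and 0.812% in p20 control, where 50% coverage gave 1.39% and stronger Pol II peaks 1.28%.

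With ERCC spike-in counts as library size, all adult genes had a median log2 fold change of -0.52, and 60 hosts (53.1%, all genes 40.1%) were lower and 1 (0.885%, 4.56%) higher in the adult. At p20 Dis3 cKO 10 were lower (8.47%, all genes 5.31%) and 1 higher (0.847%, 0.781%), and at p20 Exosc10 cKO 2 (1.69%, 0.944%) and 1 (0.847%, 1.35%). Summed per title tag, the counts gave 0 lower and 0 higher in the adult (0 of all genes), 0 lower (all genes 0.736%) and 2 higher (1.44%, 0.631%) in p20 Dis3 cKO, and 1 lower (0.719%, 0.296%) and 0 higher (all genes 0.536%) in p20 Exosc10 cKO. DESeq2 gave 7 lower in p20 Exosc10 cKO (5.93%, all genes 4.48%). With no filter 2 were lower in p20 Dis3 cKO (1.08%, 1.60%), and with only the 2 groups fitted 8 were lower (7.48%, 5.61%) and 5 higher (4.67%, 5.61%) there. For genes with the start in or within 5000 bp of a region, 2 of 16 were lower (12.5%, against 12.4% of all genes) and 1 higher (6.25%, 15.7%) in the adult, 6 of 15 lower (40.0%, 27.1%) and 0 higher (all genes 26.6%) in dcKO, and 0 in either single knockout.

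Alternatives added after the data were seen entered fewer genes. Under 100 kb, 6 hosts were lower (18.2%, all such genes 12.2%) and 1 higher (3.03%, 15%) in the adult, and 11 (31.4%, 24.7%) and 2 (5.71%, 28.8%) in dcKO. For regions with no control peak within 1000 bp, 15 of 45 hosts were lower (33.3%, all genes 12.4%) and 4 higher (8.89%, 15.7%) in the adult, and 24 (53.3%, 27.1%) and 6 (13.3%, 26.6%) in dcKO. For regions covered to 50% in every knockout list, 1 of 14 was lower (7.14%, all genes 12.4%) and 2 higher (14.3%, 15.7%) in the adult, and 6 (42.9%, 27.1%) and 2 (14.3%, 26.6%) in dcKO. The p20 replicate numbers share only a number (correlations of -0.227 to 0.154), and the fit with the replicate block gave 55 lower (46.6%, all genes 27.2%) and 12 higher (10.2%, 25.7%) in dcKO. Of 44 called values of named genes, 12 lost the call with ERCC counts as library size, 22 when summed per title tag (all 15 of the adult), 2 with no filter, 1 with the replicate block and 0 with DESeq2. With only the 2 groups compared fitted, at p20, 24 values kept the call. Prkcb, Gm13481, Cpne4 and Loxhd1 had no value in those fits. None of the 44 changed sign, and values not called were not followed across these fits. A median maximum coverage of 4 to 6 limits what presence or absence in 1 list shows.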
